A study of Mus musculus with 9 samples.

Results

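Mss51, Tfcp2l1, Abhd18, Aldh7a1 and Rnf126 are 5 seldom studied genes whose levels in mouse calf muscle after castration stood apart from the levels of both other treatment groups. They were picked by name for that pattern, 5 of 18193 genes measured, and the 12 probe sets annotated to them, of 45101 on the array, were all examined. A probe set is the group of short probes that reads 1 transcript. Of the 12, 11 were listed to a single gene, and the remaining 1 was listed to both Abhd18 and the transcribed pseudogene Gm2011. Because the pattern across the castration contrasts chose the genes, differences from castration are described below without a test, and the comparison of testosterone with sham was tested. The choice also set the testosterone arrays apart from castration, which limits how far testosterone could lie from sham on the side of castration.

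Gastrocnemius, the large calf muscle, came from outbred CD-1 mice described as young adults, killed unfasted at day 14. In the Sham group a mock operation was followed by placebo, in the Castration group castration was followed by placebo, and in the Testosterone group castration was followed at once by a 2.5 mg testosterone pellet that releases over 60 days. Every animal therefore carried a pellet under the skin. Affymetrix arrays measured 3 pools a group, with the RNA of 3 mice in a pool, so 27 of 36 mice were measured and every SD is a spread between pools.

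Testosterone acts in muscle through the androgen receptor, a transcription factor that binds paired copies of a short element in DNA once it has bound the hormone. Castration removes the main source of the hormone, and a pellet restores it. Mss51 is a protein of skeletal muscle with a MYND zinc finger that is found at mitochondria. Its yeast namesake promotes translation of a cytochrome oxidase subunit. Tfcp2l1 is a transcription factor of the grainyhead and CP2 family, known from embryonic stem cells and the kidney collecting duct. Abhd18 belongs to the alpha/beta hydrolase domain (ABHD) proteins. Aldh7a1, or antiquitin, oxidises an aldehyde intermediate of lysine breakdown. Rnf126 is a RING-type ubiquitin ligase that works with BAG6 on proteins that failed to reach a membrane.

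In the RefSeq annotation of GRCm38.p6, Mss51 spans chr14:20482857-20496901, Tfcp2l1 chr1:118627923-118685168, Abhd18 chr3:40871095-40938138 and Rnf126 chr10:79758515-79771448, all protein coding. RefSeq promoter windows were found for 4 of the 5 and are shown because the levels of these genes differed together between the groups. Each is the 250 bases before the start of transcription on the strand of the gene, with every CG pair in capitals. They are chr14:20496902-20497151 (minus strand) for Mss51, chr1:118627695-118627944 (plus) for Tfcp2l1, chr3:40894009-40894258 (plus) for Abhd18 and chr10:79766953-79767202 (minus) for Rnf126. For Tfcp2l1, Abhd18 and Rnf126 the start used lies inside the annotated span of the gene.
Mss51: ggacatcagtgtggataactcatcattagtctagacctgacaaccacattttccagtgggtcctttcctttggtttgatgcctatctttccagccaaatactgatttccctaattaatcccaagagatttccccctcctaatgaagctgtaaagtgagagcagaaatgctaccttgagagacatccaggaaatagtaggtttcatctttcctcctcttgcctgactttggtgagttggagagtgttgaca
Tfcp2l1: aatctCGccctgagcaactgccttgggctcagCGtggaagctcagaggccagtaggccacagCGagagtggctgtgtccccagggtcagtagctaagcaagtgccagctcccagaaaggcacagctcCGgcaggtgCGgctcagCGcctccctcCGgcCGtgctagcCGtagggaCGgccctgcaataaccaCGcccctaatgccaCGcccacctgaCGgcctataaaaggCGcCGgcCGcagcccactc
Abhd18: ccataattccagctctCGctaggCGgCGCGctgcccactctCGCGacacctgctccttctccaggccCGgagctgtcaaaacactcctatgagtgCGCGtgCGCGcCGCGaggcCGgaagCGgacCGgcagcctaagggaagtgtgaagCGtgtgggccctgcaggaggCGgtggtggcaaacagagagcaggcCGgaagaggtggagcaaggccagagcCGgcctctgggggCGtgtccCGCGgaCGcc
Rnf126: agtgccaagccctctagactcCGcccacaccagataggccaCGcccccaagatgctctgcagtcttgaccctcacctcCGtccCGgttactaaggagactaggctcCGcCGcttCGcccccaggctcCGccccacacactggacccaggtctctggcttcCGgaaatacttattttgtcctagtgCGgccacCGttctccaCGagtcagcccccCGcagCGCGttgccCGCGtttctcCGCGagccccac

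The promoters were of unlike kinds. The Mss51 window held 0 CG pairs and was 43.2% G and C, whereas Tfcp2l1, Abhd18 and Rnf126 held 16, 24 and 19 CG pairs and were 65.2%, 68.0% and 64.0% G and C. Across 32851 RefSeq promoter windows cut the same way, the median was 6 CG pairs and 52.4% G and C, and 7.87% of windows had no CG pair, as Mss51 does. Motifs were searched as exact letters on both strands. The TATA box TATAAA, in 12.4% of windows, occurred once, in Tfcp2l1 from 28 to 23 bases before the start. The GC box GGGCGG, in 32.7% of windows, occurred at 2 places in Rnf126, both on the opposite strand. The androgen receptor element copy AGAACA was in 16.1% of windows, the E-box CAGCTG in 13.0% and the clock E-box CACGTG in 6.02%. None of these 3 was found in the 4 windows, nor was the full palindromic androgen response element of paired such copies, which 0.00913% of windows hold. These counts say only which letters stand in these windows.

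The samples were muscle by their markers. All 8 skeletal muscle markers averaged between 13.74 and 14.21 on the log2 scale of the arrays, whose values ran from 2.22 to 14.24. The treatment showed in Smox, spermine oxidase, which lay at 9.65 to 10.63 in sham, 7.48 to 8.09 after castration and 10.15 to 10.55 with testosterone. Sham 2 and testosterone 2 stood apart, with mean correlations with the other arrays of 0.972 and 0.981 against 0.989 to 0.991 for the rest, so values are also given without both. In bulk muscle, fewer cells of a type and less RNA per cell cannot be told apart.

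Mss51, Tfcp2l1 and Rnf126 were lower after castration than in both other groups, and Mss51 was the brightest. Its only probe set (1432001_at) lay at the 99.4th percentile of all probe sets. Mss51 read 11.89, 11.89 and 12.12 in sham 1 to 3, then 10.99, 10.98 and 11.03 in castration 1 to 3, and 12.09, 11.72 and 12.01 in testosterone 1 to 3. The castration arrays were tightly grouped and all lay below the 6 others, by 0.68 at the nearest. Means were 11.97 ± 0.14 (SD, n = 3) in sham, 11 ± 0.03 after castration and 11.94 ± 0.20 with testosterone. That is a 1.96-fold lower level after castration than in sham and a 1.92-fold higher level with testosterone than after castration. Without sham 2 and testosterone 2 the log2 differences were −1.005 and 1.05.

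Rnf126, the ubiquitin ligase, had a single probe set as well (1424514_at), at the 94.1th percentile. It read 8.28, 8.06 and 7.98 in the sham arrays, 7.19, 7.26 and 7.32 in the castration arrays and 8.17, 8.69 and 8.16 in the testosterone arrays. Every castration array was below every other array, by 0.66 at the nearest, and testosterone 2 was the highest of all 9. Means were 8.11 ± 0.16 in sham, 7.26 ± 0.07 after castration and 8.34 ± 0.31 with testosterone (SD, n = 3). The level was 1.80-fold lower after castration than in sham and 2.11-fold higher with testosterone than after castration. Without sham 2 and testosterone 2 the log2 differences were −0.87 and 0.90.

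Tfcp2l1 was much dimmer. Its brightest probe set (1418091_at) averaged 4.33, the 76.0th percentile of probe sets, where the median probe set averaged 3.18. The sham arrays read 4.43, 4.27 and 4.69, the castration arrays 3.72, 3.57 and 3.43, and the testosterone arrays 4.99, 5.14 and 4.73. The groups fell into 3 separate bands, castration lowest and testosterone highest. Means were 4.47 ± 0.21, 3.57 ± 0.14 and 4.96 ± 0.21 (SD, n = 3), so the level was 1.85-fold lower after castration than in sham and 2.60-fold higher with testosterone than after castration. The castration mean was near the level of the median probe set, so the low end of the scale limits these folds too. Without sham 2 and testosterone 2 the log2 differences were −0.99 and 1.29.

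Abhd18 and Aldh7a1 ran the other way and were higher after castration. The brightest Abhd18 probe set (1455475_at) read 3.54, 3.20 and 3.20 in sham, 4.55, 4.86 and 4.45 after castration and 3.30, 2.91 and 3.38 with testosterone. All 3 castration arrays were above the other 6, by 0.91 at the nearest, while sham and testosterone values sat near the median probe set. Means were 3.31 ± 0.20, 4.62 ± 0.22 and 3.19 ± 0.25 (SD, n = 3), 2.47-fold higher after castration than in sham and 2.68-fold lower with testosterone than after castration. The lower level in both folds is at that of the median probe set, 3.18, so their size is limited by the low end of the scale and is no precise measure. Without sham 2 and testosterone 2 the log2 differences were 1.25 and −1.28.

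Aldh7a1, the lysine pathway enzyme encoded at chr18:56524722-56572991, had the smallest difference of the 5 and little spread. Its brightest probe set (1460167_at), at the 87.3th percentile, read 6.08, 5.94 and 5.94 in sham, 6.59, 6.59 and 6.77 after castration and 6.10, 5.95 and 6.17 with testosterone. The castration arrays cleared the others by 0.42 at the nearest. Means were 5.99 ± 0.08, 6.65 ± 0.11 and 6.08 ± 0.11 (SD, n = 3), 1.58-fold higher after castration than in sham and 1.49-fold lower with testosterone than after castration. After renewed quantile normalisation its difference between castration and sham was 0.46 in place of 0.66 on the log2 scale. Without sham 2 and testosterone 2 the log2 differences were 0.64 and −0.51.

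**Figure D1:**
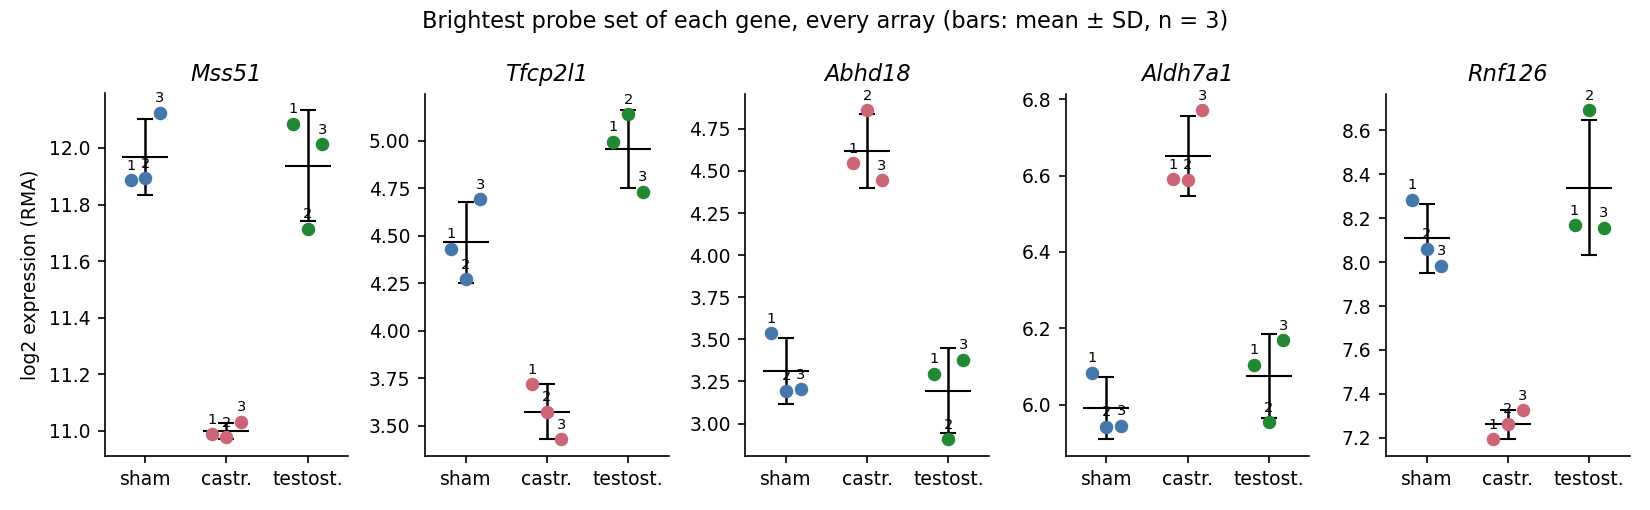
Log2 expression of the brightest probe set of each gene on each of the 9 arrays (points numbered by replicate; bars, mean ± SD, n = 3), with axes that do not start at 0. In every panel the 3 castration points lie beyond all 6 sham and testosterone points, below them for Mss51, Tfcp2l1 and Rnf126 and above them for Abhd18 and Aldh7a1.

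The castration arrays were outside all 6 others in 5 of 5 genes, which is what chose them, and in 3.06% of all genes (557 of 18193). They were above in 2 of the 5, beside 1.88% of all genes, and below in 3 of the 5, beside 1.18%. By the width of the clear gap, 5 genes had one at least as wide as Abhd18 (Abhd18 included), 11 as wide as Mss51, 13 as wide as Rnf126, 20 as wide as Tfcp2l1 and 34 as wide as Aldh7a1. No gene of the array passed the limma test with Benjamini-Hochberg adjustment in castration minus sham or in testosterone minus castration, 0 of 18193 each (0% called). At an unadjusted p under 0.05, 859 and 633 genes did, which is 4.72% and 3.48% of genes. Both comparisons use the same castration arrays, so their opposite signs are not separate pieces of evidence.

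The castration arrays were set apart only in the brightest probe set of each gene, and agreement of the dimmer ones with it was uneven. The other 7 probe sets, 6 of them listed to 1 gene, averaged only 2.60 to 3.27. In 0 of these 7 did the castration arrays lie outside the others, beside 2.32% of all probe sets. Their largest difference was 0.22 between castration and sham and 0.29 between testosterone and castration on the log2 scale, in size. Of the 6, 4 shared the sign of the bright probe set in castration minus sham and 4 in testosterone minus castration. Over the 9 arrays, which share the group differences, the closest to the bright probe set were 1415902_at of Aldh7a1 (Pearson r = 0.62, Spearman rho = 0.36) and 1429966_at of Abhd18 (r = 0.61, rho = 0.50), both with its sign in both contrasts. The other 4 had r from −0.46 to 0.27.

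The second Abhd18 probe set (1429966_at) read 2.94 to 3.39 in sham, 3.30 to 3.53 after castration and 3.11 to 3.31 with testosterone, a difference of 0.22 and then −0.22 with overlapping groups. The third (1438283_at) lay between 3.02 and 3.26 throughout, and differed by 0.09 and 0.06, the latter against the bright probe set's sign. The one shared with Gm2011 (1452477_at), at the 1.77th percentile, differed by 0.15 and −0.09. All 3 Aldh7a1 probe sets are annotated to 1 and the same cDNA record. Even so, 1415902_at and 1448137_at averaged 2.96 and 3.10 where the bright one averaged 6.24, and they differed by 0.14 and −0.06 between castration and sham and by −0.29 and −0.06 between testosterone and castration. The remaining Tfcp2l1 probe sets, 1460714_at and 1460715_x_at, averaged 2.73 and 2.86 and differed by 0.02 and −0.04 between castration and sham and by −0.12 and 0.04 between testosterone and castration. The suffix of the latter marks probes that can match other transcripts. When each gene was taken as the mean of its probe sets, the castration minus sham difference was 0.54 for Abhd18, 0.25 for Aldh7a1 and −0.30 for Tfcp2l1. For Mss51 and Rnf126 no second probe set was listed, so their values rest on 1 probe set each.

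**Figure D2:**
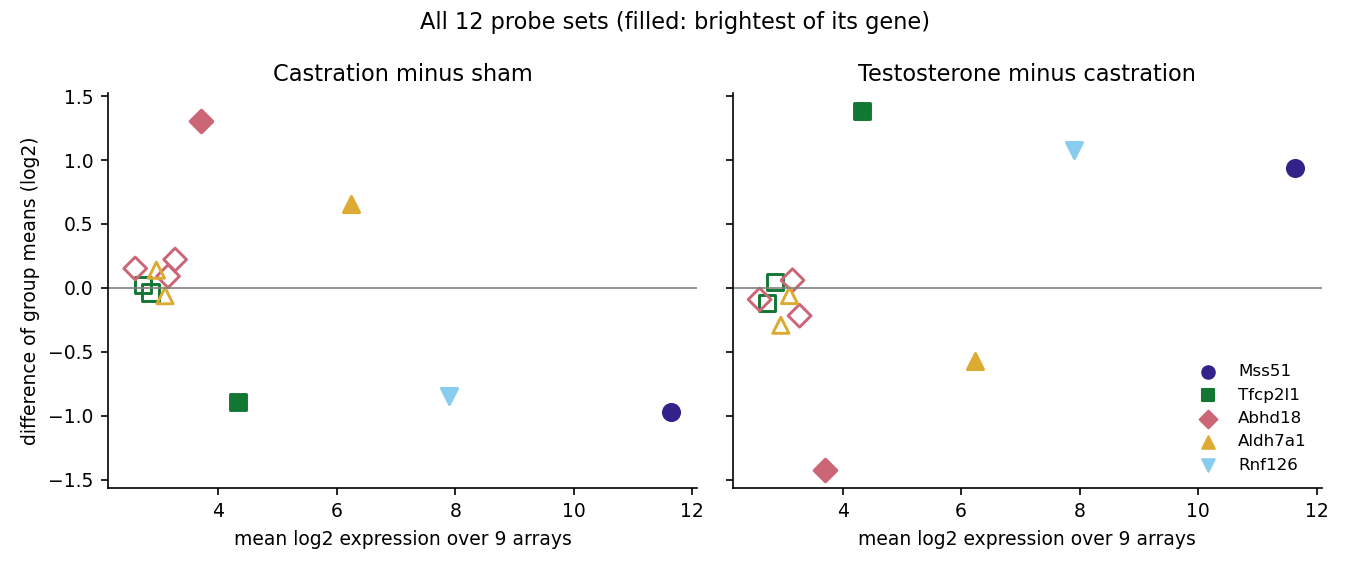
Difference of group means on the log2 scale against mean log2 expression over 9 arrays for all 12 probe sets, left for castration minus sham and right for testosterone minus castration; filled symbols are the brightest probe set of each gene. The 7 open symbols sit below a mean level of 3.27 or at it and within 0.29 of 0, while the filled ones lie between 0.58 and 1.42 from 0.

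The tested question was whether pellet-treated muscle differed from sham muscle in these genes. By limma with adjustment across the whole table, 0 of the 5 passed and so did 0 of 18193 genes (0% called), with 791 genes (4.35%) at an unadjusted p under 0.05. Tfcp2l1 was the furthest from sham, at 0.49 on the log2 scale (SE 0.14, 95% interval 0.16 to 0.82, limma adjusted p = 0.780, unadjusted p = 0.0085). All 3 of its testosterone arrays lay above all 3 sham arrays, a non-overlap that 6.47% of genes show, and the closest pair was 4.69 in sham 3 and 4.73 in testosterone 3. An exact two-sided permutation test gave p = 0.1, the smallest that 3 arrays against 3 allow. Without sham 2 and testosterone 2 the difference was 0.30.

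For the other genes the interval of the limma fit included 0. The difference was −0.03 for Mss51 (95% interval −0.29 to 0.23, limma adjusted p = 0.952) and 0.23 for Rnf126 (−0.11 to 0.58, limma adjusted p = 0.780). It was −0.12 for Abhd18 (−0.49 to 0.26, limma adjusted p = 0.847) and 0.09 for Aldh7a1 (−0.13 to 0.30, limma adjusted p = 0.808). The Rnf126 difference rested on testosterone 2, and was 0.05 without that array. A p above the threshold does not show that the groups were alike. Across all 12 probe sets, fitted among 45037, adjusted p in this comparison was 0.797 or higher.

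**Figure D3:**
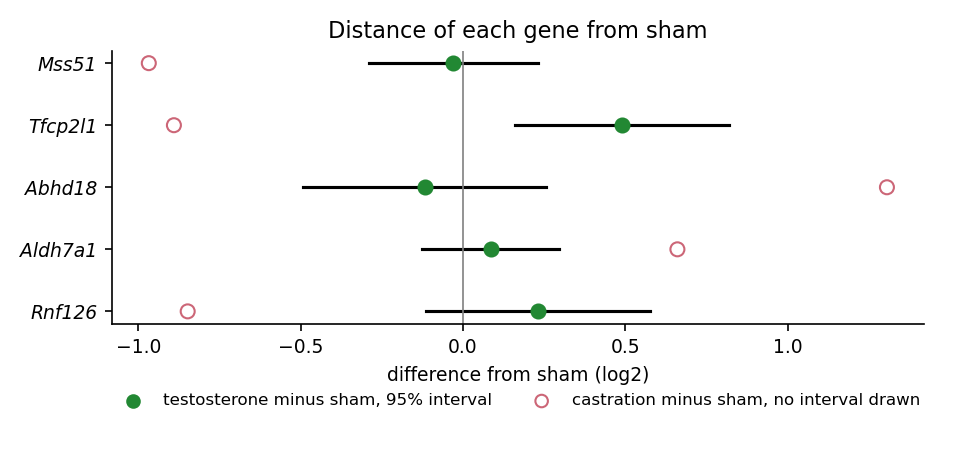
Distance of each gene from sham on the log2 scale: filled points, testosterone minus sham with 95% intervals of the limma fit; open circles, castration minus sham, drawn without an interval because that contrast chose the genes. The intervals of Mss51, Abhd18, Aldh7a1 and Rnf126 cross 0, and that of Tfcp2l1 runs from 0.16 to 0.82.

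Within the 6 sham and testosterone arrays the genes did not all vary together, and pairs differed in how closely they correlated. Testosterone 2 held the highest Rnf126 and Tfcp2l1 values of all 9 arrays and the lowest Abhd18 value, while for Mss51 it was the lowest of the 6. Over these 6 arrays Mss51 and Rnf126 correlated at r = −0.83, Abhd18 and Aldh7a1 at 0.69 and Tfcp2l1 and Rnf126 at 0.59, with the other 7 pairs between −0.54 and 0.44. These describe 6 arrays that share 2 outlying ones, and carry no test.

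Markers of other cells moved with the castration arrays too. Of 6 measured adipocyte markers, all 6 averaged lower after castration than in sham and higher with testosterone than after castration. Castration arrays lay outside all others in 3 of the 6, beside 3.06% of all genes. The adipocyte score, the mean log2 deviation of these markers from their own means, was −0.75 to −0.64 after castration, −0.35 to 1.03 in sham and −0.62 to 1.31 with testosterone. Adipoq, which fat cells secrete, lay between 5.29 and 9.21 over the arrays, and Lep and Pck1 averaged 3.12 and 3.09, near the median probe set. Testosterone 3 scored −0.62, and on that array Mss51 read 12.01, Tfcp2l1 4.73, Abhd18 3.38, Aldh7a1 6.17 and Rnf126 8.16. These are values of a single pool, and no conclusion is drawn from them. Endothelial markers ran the opposite way, with a score of 0.09 to 0.41 after castration, −0.41 to 0.02 in sham and −0.22 to 0.05 with testosterone over 7 genes. Of these 7, 1 had castration arrays outside all others. The 3 measured erythroid markers, which averaged 3.10 to 4.01, scored −0.077 to −0.069 after castration and −0.064 to 0.15 elsewhere. These scores were barely apart, and 0 of the 3 markers had castration arrays outside all others. The skeletal muscle score stayed within −0.03 and 0.04 on all arrays. Its 8 markers averaged 13.74 to 14.21, near the highest value of the arrays, 14.24. Whether readings that high can still show a difference was not tested. The part of adipocyte, endothelial and erythroid cells in the 5 genes' differences was not tested. Scores of the macrophage and lymphocyte, fibroblast, tendon, smooth muscle, Schwann cell and epidermal lists overlapped between castration and the other arrays. Testosterone 2 scored 1.21 on the macrophage and lymphocyte list, against −0.29 to 0.30 on the other arrays. All 7 measured markers of that list averaged higher with testosterone than after castration. Sham 2 scored 0.76 on the epidermal list, against −0.26 to 0.21 elsewhere. The part of these cells in the values of both arrays was not tested.

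**Figure D4:**
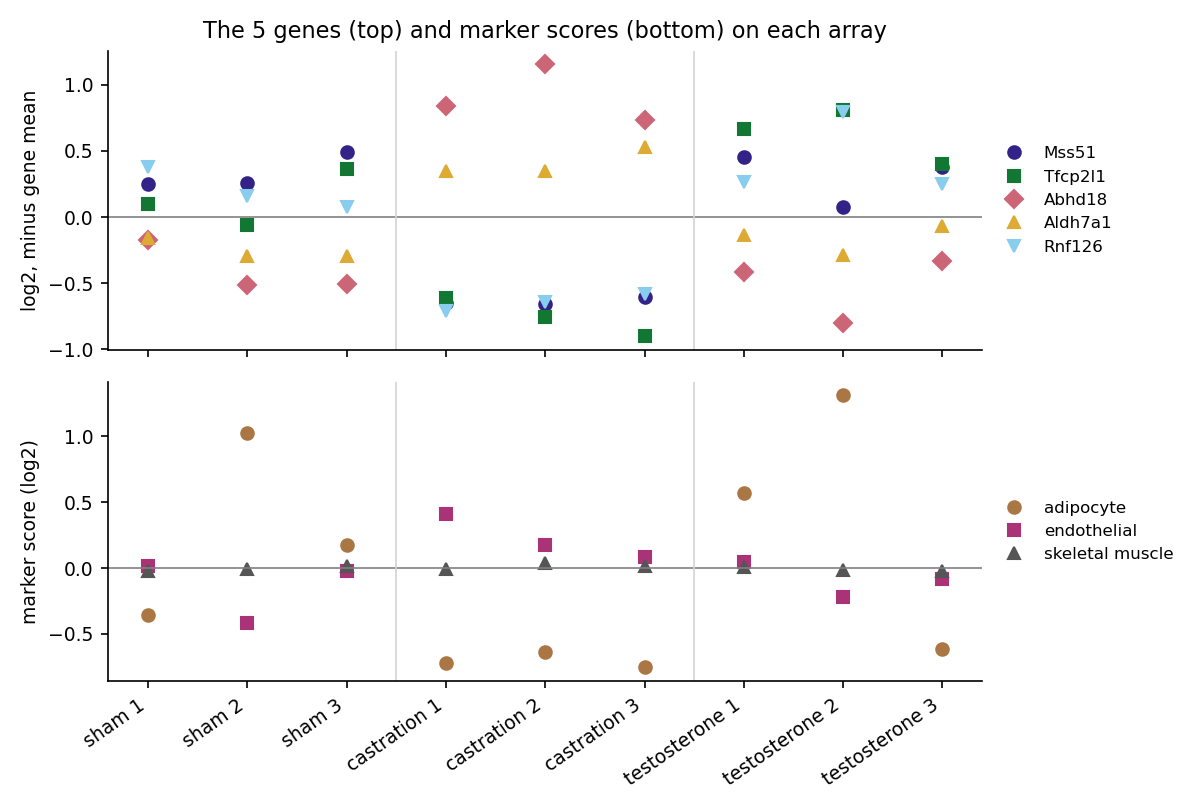
Top, log2 expression of the 5 genes on each array minus the gene's mean; bottom, marker scores (mean log2 deviation) of 6 adipocyte, 7 endothelial and 8 skeletal muscle genes on the same arrays. The adipocyte score runs from −0.75 to −0.64 on the castration arrays and from −0.62 to 1.31 on the testosterone arrays. The skeletal muscle score, of markers near the top of the scale, stays within −0.03 and 0.04.

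Genes related to the 5 were taken from 9 lists, 135 measured genes of 142 listed. By limma, 0 of them passed after adjustment across the whole table in any comparison. At an unadjusted p under 0.05 there were 9 in castration minus sham (6.67%), 8 in testosterone minus castration (5.93%) and 3 in testosterone minus sham (2.22%), beside 4.72%, 3.48% and 4.35% of all genes. Castration arrays lay outside all others in 6 of the 135 (4.44%, beside 3.06% of all genes). These 6 were Gcdh, Aldh2, Aldh1a1, Il6st, Zfand2b and Ube2d1.

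Around Mss51, the MYND zinc finger list had 16 of 19 members higher after castration than in sham (median 0.10, beside 0.01 for all genes) and 9 higher with testosterone than after castration (median −0.01), none passing. Without sham 2 the former was 12 of 19 with a median of 0.04, and after renewed quantile normalisation 13 with a median of 0.05. The latter median was 0.02 without sham 2 and testosterone 2. Smyd2, a lysine methyltransferase, differed by −0.36 and 0.33 in these 2 contrasts, the same signs as Mss51. The chromatin reader Zmynd8 differed by 0.48 and 0.18, and only 1 of its 5 probe sets had the former sign. Without sham 2 the former was 0.23, and without testosterone 2 the latter was 0.02. In the cytochrome oxidase assembly list, 16 of 19 were higher after castration (median 0.19) and 7 higher with testosterone (median −0.05), none passing. Without sham 2 that count was 11 of 19 with a median of 0.02, and after renewed quantile normalisation 12 with a median of 0.01. Coa5 differed by 0.30 and −0.11, and Cox10, which makes the haem of the oxidase, by 0.20 and −0.05, the former 0.11 without sham 2. Only 1 of 2 Coa5 probe sets and 1 of 3 Cox10 probe sets had these signs in each contrast. The Mss51 differences, −0.97 and 0.94, lay outside the range of both lists, −0.36 to 0.48 and −0.23 to 0.33. The choice of Mss51 by these contrasts favours that.

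Around Tfcp2l1, 5 members of the grainyhead and CP2 family had medians of 0.02 and 0.09 in the same contrasts, and none passed. Without sham 2, 1 of the 5 in place of 3 was higher after castration, with a median of −0.03. Ubp1 differed by 0.35 and 0.36 and Tfcp2 by 0.05 and 0.09, but without sham 2, where Ubp1 read 3.94 against 5.71 and 5.82 in the other sham arrays, the castration minus sham differences were −0.25 and −0.02. In testosterone minus castration only 1 of 2 Ubp1 probe sets had the sign of 0.36. The LIF and STAT3 circuit of embryonic stem cells had 9 of 16 members higher after castration (median 0.05) and 6 higher with testosterone (median −0.04), none passing. The former direction turned without sham 2, to 7 of 16 with a median of −0.03, and after renewed quantile normalisation, to 6 of 16 with a median of −0.04. Pou5f1 and Sox2, which define those cells, averaged 2.93 to 3.17 and 2.55 to 2.70 in the 3 groups, at or below the median probe set. Il6st, the shared receptor subunit of the interleukin-6 family, had castration arrays above all others, at 8.36 to 8.57 against 8.03 to 8.35. Its difference from sham was 0.21, or 0.11 without sham 2. Of 4 Il6st probe sets, 3 were higher after castration than in sham and 3 lower with testosterone than after castration.

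Around Abhd18, the ABHD family had 11 of 19 members higher after castration (median 0.10) and 14 higher with testosterone (median 0.07), with none passing. The former was 9 of 19 with a median of −0.02 after renewed quantile normalisation, and 12 with a median of 0.05 without sham 2. The latter median was 0.04 without sham 2 and testosterone 2. Abhd12 differed by 0.22 and 0.07, or by 0.11 without sham 2 and −0.03 without testosterone 2. Only 1 of its 2 probe sets had the sign of 0.22, and only 1 that of 0.07. Abhd15, at a mean of 3.10 or less in each group, differed by −0.27 and 0.22, the former −0.12 without sham 2 and with its sign in 1 of 2 probe sets. The family ranged from −0.27 to 0.31 and from −0.21 to 0.33, beside 1.31 and −1.42 for Abhd18, which was chosen by these contrasts.

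Around Aldh7a1, 8 of 13 lysine breakdown genes were higher after castration (median 0.04) and 4 higher with testosterone (median −0.08), none passing. Without sham 2 the former was 7 of 13 with a median of 0.01, and without sham 2 and testosterone 2 the latter median was −0.03. Gcdh, glutaryl-CoA dehydrogenase further down the same pathway, read 5.99, 5.58 and 5.96 in sham, 6.42, 6.18 and 6.37 after castration and 5.995, 5.70 and 5.88 with testosterone. Its castration arrays were above all others, as for Aldh7a1, with differences of 0.48 (SE 0.13, limma adjusted p = 0.838) and −0.47 (limma adjusted p = 0.922). Without sham 2 the former was 0.35, and without testosterone 2 the latter was −0.39. Phykpl, which breaks down phosphohydroxylysine, differed by −0.17 and 0.48, the former −0.30 without sham 2. Among 19 other aldehyde dehydrogenases 8 were higher after castration (median −0.05) and 9 higher with testosterone (median −0.03), none passing. Without sham 2 the former was 10 of 19 with a median of 0.0032. Aldh2, the mitochondrial acetaldehyde enzyme, was above all other arrays after castration, at 9.46 to 9.56 against 9.15 to 9.30. Of 5 Aldh2 probe sets, 4 were higher after castration than in sham and 3 lower with testosterone than after castration. Aldh1a1, a retinal dehydrogenase, was below all other arrays after castration, at 8.03 to 8.26 against 8.39 to 8.71. Choline and betaine genes had 4 of 9 members higher in each contrast, with medians of −0.06 and −0.01, none passing. Without sham 2 the direction turned in castration minus sham, to 6 of 9 higher with a median of 0.04. Chkb, choline kinase beta, differed by −0.31 and 0.17, and Chdh, choline dehydrogenase, by −0.35 and 0.22. Chdh averaged 2.77 to 3.13 in the 3 groups, below the level of the median probe set, 3.18.

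Around Rnf126, the BAG6 quality control list had 12 of 16 members higher after castration (median 0.09) and 11 higher with testosterone (median 0.06), none passing. The former was 9 of 16 with a median of 0.03 without sham 2, and turned after renewed quantile normalisation, to 7 of 16 with a median of −0.03. Zfand2b, a proteasome-associated zinc finger protein, differed by −0.09 and 0.23, with castration arrays at 4.68 to 4.75 below all others. Only 1 of its 2 probe sets had the sign of −0.09. The ubiquitin-conjugating enzymes Ube2d2a and Ube2d1 differed by 0.22 and 0.27 and by 0.42 and −0.64, the latter with castration arrays at 9.44 to 9.49 above all others. Without sham 2 their castration minus sham differences were 0.04 and 0.24. Of 5 Ube2d2a probe sets, 4 had the signs given here in each contrast. Without testosterone 2, where Ube2d1 read 7.89 against 9.43 and 9.17 in the other testosterone arrays, its −0.64 was −0.17.

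**Figure D5:**
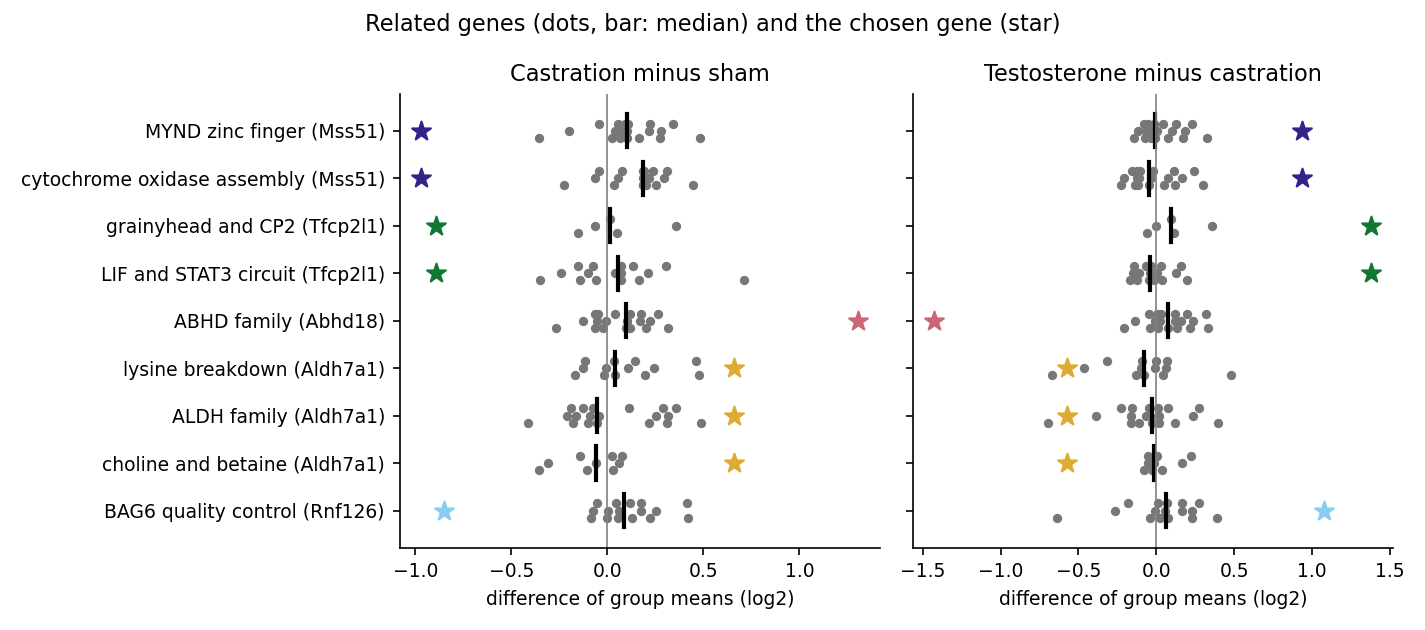
Difference of group means on the log2 scale for the measured genes of the 9 lists (dots; bar, median), left for castration minus sham and right for testosterone minus castration, with the gene each list belongs to as a star. The list medians lie between −0.06 and 0.19 on the left and between −0.08 and 0.09 on the right. The stars lie further from 0, which the choice of these genes by the same contrasts favours.

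Neighbours on the chromosome were compared as well, the 2 nearest protein-coding genes on each side. Of 20 neighbours 19 were measured, and none passed the limma test. Castration arrays lay outside all others in 1 of the 19, beside 3.06% of all genes. This was Phax, an RNA export adaptor whose annotated span overlaps that of Aldh7a1. Phax read 7.07, 6.81 and 7.12 in sham, 7.19, 7.31 and 7.22 after castration and 7.12, 6.99 and 7.03 with testosterone, a difference of 0.24 (SE 0.10, limma adjusted p = 0.838) and a clear gap of 0.06, the difference 0.14 without sham 2. Larp1b, beside Abhd18, differed by 0.45 between castration and sham, with castration arrays at 8.001 to 8.28 and overlapping testosterone 1 at 8.17.

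The genes whose profiles over the 9 arrays were most like each member were ranked by Pearson r, with no test, since all r here mostly restate the split between castration and the rest. Nearest to Mss51 were Efna1 (r = 0.97), Tns1 (0.97) and Spns2 (0.97), an ephrin ligand, the adhesion protein tensin and a sphingosine 1-phosphate transporter. Over the 6 sham and testosterone arrays alone these r were 0.87, 0.58 and 0.51. Nearest to Tfcp2l1 were Serpinb6a (0.97), Inmt (0.96) and Pkdcc (0.96), with r of 0.88, 0.83 and 0.92 over the 6 arrays. Nearest to Rnf126 were Inmt (0.97), Hr (0.96) and Serpinb6a (0.95), with r of 0.83, 0.78 and 0.69 over the 6. Inmt, a methyltransferase, and Serpinb6a, a protease inhibitor, thus appeared for both genes. Inmt, Hr, Serpinb6a and Pkdcc all read highest on testosterone 2, as Tfcp2l1 and Rnf126 did. The r over the 6 arrays share that outlying array and were not computed without it.

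Nearest to Abhd18 were the clock gene Per3 (0.97), Itm2a (0.96) and Prkcq (0.96), with r of 0.65, 0.84 and 0.56 over the 6 sham and testosterone arrays. Per3 read 4.43, 4.18 and 4.49 in sham, 5.33, 5.28 and 5.16 after castration and 4.46, 4.15 and 4.37 with testosterone. Per3, Itm2a and Prkcq all read lowest on testosterone 2, as Abhd18 did, so their r over the 6 arrays share that array too. Nearest to Aldh7a1 were Abhd18 (0.94), Abcc5 (0.94) and Sec14l1 (0.94), with r of 0.69, 0.57 and 0.74 over the 6. All 13 distinct genes named here had castration arrays outside all others, beside 3.06% of all genes, as the ranking by r favours.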

How the data were processed

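The authors deposited log2 expression values. The submitters' processing notes name RMA, without a version. RMA corrects background, quantile-normalises the arrays together and summarises each probe set, which reduces shifts common to an array. Array medians still ran from 3.15 in castration 2 to 3.26 in sham 2, so such shifts were not fully removed. Values reach down to 2.22, and whether a GC-corrected form of RMA was used is not settled here, which bears on folds near the low end (Abhd18, Tfcp2l1). Values were used as deposited. Of 45101 probe sets 64 were controls, 34945 were listed to 1 gene, 932 to several and 9160 were unlisted. Each gene took its brightest single-gene probe set by mean over all arrays, giving 18193 genes.

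Groups were compared by limma 3.58.1 (lmFit, eBayes; R 4.3.3) on all 9 arrays with group as the only term, two-sided, with Benjamini-Hochberg adjustment over all genes and a threshold of 0.05. Replicates are pools of separate animals, and p-values reflect the spread among pools. No 2 arrays shared more than 5.78% of identical values, and the number of arrays, 3 a group, limits the precision. Named genes were all members, the 2 genes of smallest p in each list, the 3 most alike by Pearson r and the chromosome neighbours. Il6st, Ube2d1 and Larp1b were singled out after their values were seen. The members and lists were chosen with earlier results of these data known. The fit was tested on simulated data. Alternatives changed the replicate block, arrays, probe sets, filter, normalisation, variance model and weights. List medians without sham 2 alone, and list genes and neighbours without sham 2 or testosterone 2, were added after seeing the data.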

Additional observations from a re-analysis of the deposited data

How the results depend on the processing

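With 3 pools a group and 1 responding probe set a gene, precision is limited, and Abhd18 and Tfcp2l1 sit near the level of the median probe set. Over 22 alternatives none turned the direction of any of the 5 genes in castration minus sham or testosterone minus castration. In the 15 settings that give this count, 5 of 5 kept castration arrays outside all others. Leaving out arrays, or filtering probe sets or genes, could not undo the separation that chose the genes. The replicate block and the fit of only the 2 groups compared returned unchanged differences. So did the intensity trend, robust variances and the fit without moderation, so none of these could turn a direction. All of those settings are therefore no support for either result. In testosterone minus sham none of the 5 passed in any setting, with limma adjusted p from 0.297 to 0.998. Small differences there changed sign: Mss51 was 0.0039 with median centring, 0.084 with array weights, 0.0444 without sham 2 and testosterone 2 and −0.104 to 0.0814 leaving out 1 array; Abhd18 was 0.0121 with the mean of probe sets and −0.211 to 0.0247 leaving out 1 array; Aldh7a1 was −0.0633 with the mean of probe sets and −0.12 after renewed quantile normalisation; Rnf126 was −0.0012 with array weights. The cause was not tested.

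Counts over all genes moved. Genes with castration arrays outside all others numbered 557, and from 425 to 1407 over the alternatives that give this count. The 425 came from leaving out dim genes, so it counts over fewer genes and is not a lower share. The 1407 came from leaving out 1 array, which can only raise the count. In castration minus sham, where 0 passed, 2 passed with the mean of probe sets, 5 after renewed quantile normalisation, 2 with an intensity trend, 174 with array weights, 18 without sham 2 and testosterone 2, and 0 to 7 when 1 array was left out (7 without sham 2). In testosterone minus castration, also 0, 12 passed with only the 2 groups compared, 2 with the mean of probe sets, 9 without dim genes, 22 after renewed quantile normalisation, 12 with an intensity trend, 59 with array weights, 27 without sham 2 and testosterone 2 and 0 to 28 when 1 array was left out (28 without sham 2, 3 without sham 1). In testosterone minus sham 0 to 1 passed leaving out 1 array, the 1 without testosterone 3. Of the list genes 1 passed with array weights in castration minus sham (Smyd2) and 1 in testosterone minus castration (Phykpl). The weights were 4.61 for sham 1 and 0.164 for sham 2. With the replicate number as a block, 0 genes passed in each comparison, 0 of the 5 passed in testosterone minus sham, and Tfcp2l1 stayed at 0.49 (limma adjusted p = 0.818). Same-numbered arrays deviated together at r from −0.47 to 0.31, so the numbers were not taken to pair the arrays.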
